A study of Arabidopsis thaliana and Zea mays with 12 samples.

Results

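Leaf transcripts of the maize inbred line B97 were set against those of the inbred line B73. The 6 arrays were taken by their titles, 3 of B97 and 3 of B73, out of 12 arrays in the series. Inbred lines are bred by repeated selfing until they are close to uniform, and they serve as parents of hybrids; B73 is the line from which the first maize reference genome was made. Differences in transcript level between such lines are one of the starting points for work on hybrid performance.

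Both lines were grown in the same way. Seeds were imbibed for 2 days, plants grew for 2 weeks at 22 degrees Celsius with a 16 hour photoperiod, and the shoot above the coleoptile was taken near the middle of the light period. RNA from several plants was combined into each labelled sample, so the p-values below rest on such pools and not on single plants. With the replicate number as a block, a p-value measures the spread of the differences between same-numbered pools of the lines. Without the block, it measures the spread between pools of a line. The labels do not say whether a replicate number marks a shared day. No mutation, transgene or treatment is named for either line. The labels call the tissue adult leaf although the plants were seedlings of 2 weeks.

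A probe set on these arrays is a group of short probes that together report 1 transcript or a set of close relatives. Its signal depends on how much transcript is present and on how well the probes match the line's own sequence. The second part was not tested here, and every change below carries that limit. In whole shoots, fewer cells of a type and less RNA per cell cannot be told apart either. Names ending in _at mark probes meant for 1 transcript, _a_at probes shared by transcripts of 1 gene, _s_at probes shared by several transcripts, and _x_at probes of which some may bind other sequences. Of the 17555 maize probe sets, 1452 had 1 listed gene. These covered 1108 genes, 101 with a symbol that is more than a LOC number and 1007 known by a LOC number alone, for which the annotation used here gives no product.

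Values per array are the deposited intensities. A log2 change is B97 minus B73 after log2(intensity + 16) and quantile normalization, with its standard error (SE) from limma, in which the replicate number enters as a block. The scale understates the change of weakly read probe sets. The array's reporter controls, with 1 bright exception left out, reached at most 12.8 on any array, and a probe set at or under 12.8 on every array is called reporter-level below. A change near 0 at that level follows from the lack of signal and the pseudocount, and says nothing of the transcript. A probe set is called when its p, adjusted over all probe sets by the Benjamini-Hochberg method, is under 0.05.

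The 2 lines differed widely. Of all probe sets 27.6% were called, 14.2% higher and 13.3% lower in B97. Without the replicate block 20.8% were called (3653), 1760 higher and 1893 lower. With the block, called changes of at least 2-fold were more often falls (614, or 3.5%) than rises (304, or 1.73%). The order of the directions depended on the processing: 1989 were higher and 2532 lower with the values as deposited, and 3135 higher and 2273 lower with median centring, against 2501 and 2340 here. Falls were also the more frequent at a pseudocount of 1 (1540 of 2784) and without any 1 array (1369 of 2335 without the third B97 array). In 37.3% the normalized values of the lines did not overlap. The median log2 change was 0.03. The first principal component, with 74.7% of the variance, separated the lines. The second, with 12.2%, set the third array of each line apart from the other arrays. The count of 4841 calls was 2335 without the third B97 array and 2395 without the third B73 array. With the replicate block, leaving out an array also takes its same-numbered partner out of the comparison of the lines. Such a fit rests on the remaining numbered pairs and has less power, so a call can be lost for that reason alone. Leaving out either array of a numbered pair is therefore nearly the same fit. The ratio of 3' to 5' signal of the GAPDH control, a sign of RNA quality, was 1.82, 2.02 and 2.42 in B97, against 2.52, 5.91 and 3.29 in B73, so the lines did not overlap (p = 0.1 by a two-sided exact permutation test, the smallest possible with 3 against 3). A second GAPDH control ran the other way, with means of 2.86 in B97 and 0.677 in B73 and with overlap (p = 0.2, same exact test). The 5 controls of actin, ef1a, cyclophilin and ubiquitin overlapped between the lines (exact p from 0.4 to 1). The part of RNA quality in the calls was not tested.

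**Figure D1:**
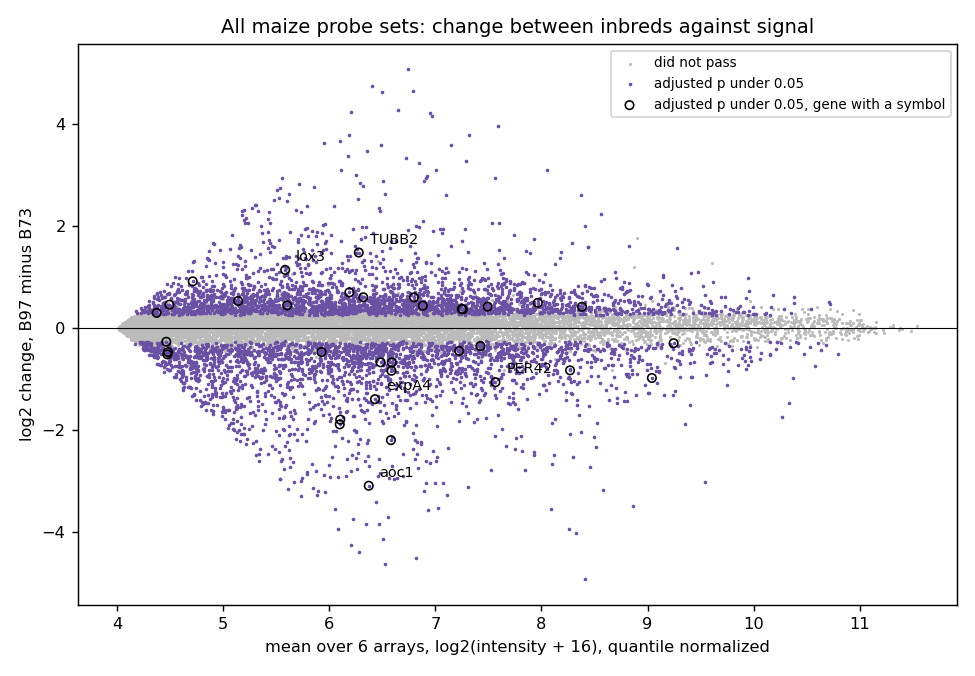
Log2 change, B97 minus B73, of each of the 17555 maize probe sets against its mean normalized log2 signal over 6 arrays. Purple points have an adjusted p under 0.05 and circles mark those of genes with a symbol, from aoc1 at -3.09 to TUBB2 at 1.48.

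Genes were read through their probe set of highest mean. Of the 1452 listed probe sets 26.4% were called, and of the 1108 listed genes 28.9% were, 164 higher and 156 lower in B97. Among the 101 genes with a symbol 27 were called (26.7%), 15 higher and 12 lower, and among the 1007 LOC genes 293 (29.1%), 149 higher and 144 lower. These shares are near the background of all probe sets. At reporter level were 31 of the 101 genes with a symbol, of which 2 were called, pht7 and ARLC. The count of listed genes was 153 without the third B97 array and 157 without the third B73 array. Of the 27 genes with a symbol, 12 kept the call without any 1 array: TUBB2, lox3, lls1 and pht1, which rose, and aoc1, nar, expA4, PER42, opr7, NNR1, MMT1 and MNB1a, which fell.

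The steepest rise among genes with a symbol was that of TUBB2, a beta-tubulin gene whose product builds microtubules. Its signal was 126, 137 and 82.9 in B97, against 34.3, 45.4 and 20.2 in B73. All B97 arrays lay above all B73 arrays, and the log2 change was 1.48 ± 0.08 (SE, n = 3 pairs, limma adjusted p = 1.8e-04). The lipoxygenase gene lox3, which oxidises fatty acids, read 65.7, 46.0 and 51.5 in B97, against 12.8, 18.9 and 20.8 in B73 (log2 change 1.14 ± 0.12, adjusted p = 0.0015).

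Chlorophyll breakdown and phosphate uptake were each represented by a rise. The gene lls1, for the oxygenase that opens the ring of pheophorbide a, read 86.7, 70.5 and 71.6 in B97, against 51.1, 31.0 and 47.6 in B73. Its log2 change was 0.70 ± 0.10 (adjusted p = 0.0053), again without overlap. The phosphate transporter gene pht1 read 130, 122 and 111 in B97 and was almost level in B73, at 75.4, 76.2 and 74.4 (log2 change 0.60 ± 0.07, adjusted p = 0.0026).

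Of the falls, aoc1 and expA4 are given below with all their probe sets. The peroxidase gene PER42 read 141, 91.7 and 116 in B97, against 276, 240 and 256 in B73 (log2 change -1.06 ± 0.09, adjusted p = 7.8e-04). The nitrate reductase gene NNR1, for the first step of nitrate assimilation, read 279, 207 and 173 in B97, against 448, 403 and 334 in B73. In both lines the third array was the lowest, and within each numbered pair B97 was lower (log2 change -0.83 ± 0.08, adjusted p = 0.0013). The 12-oxo-phytodienoate reductase gene opr7 of jasmonate synthesis averaged 55.2 ± 9.52 in B97 and 114 ± 21.5 in B73 (SD, n = 3 each, log2 change -0.84, limma adjusted p = 0.0011).

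MNB1a, a transcription factor gene of the Dof zinc finger family, was the 1 member of the transcription factor list to fall. It read 56.9, 58.5 and 46.6 in B97, against 93.6, 110 and 89.1 in B73 (log2 change -0.67 ± 0.07, adjusted p = 0.0018). Its namesake MNB1b, for a chromatin protein of the high mobility group, had 3 probe sets with log2 changes of -0.03, -0.09 and -0.11, none of which passed (lowest adjusted p = 0.44).

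**Figure D2:**
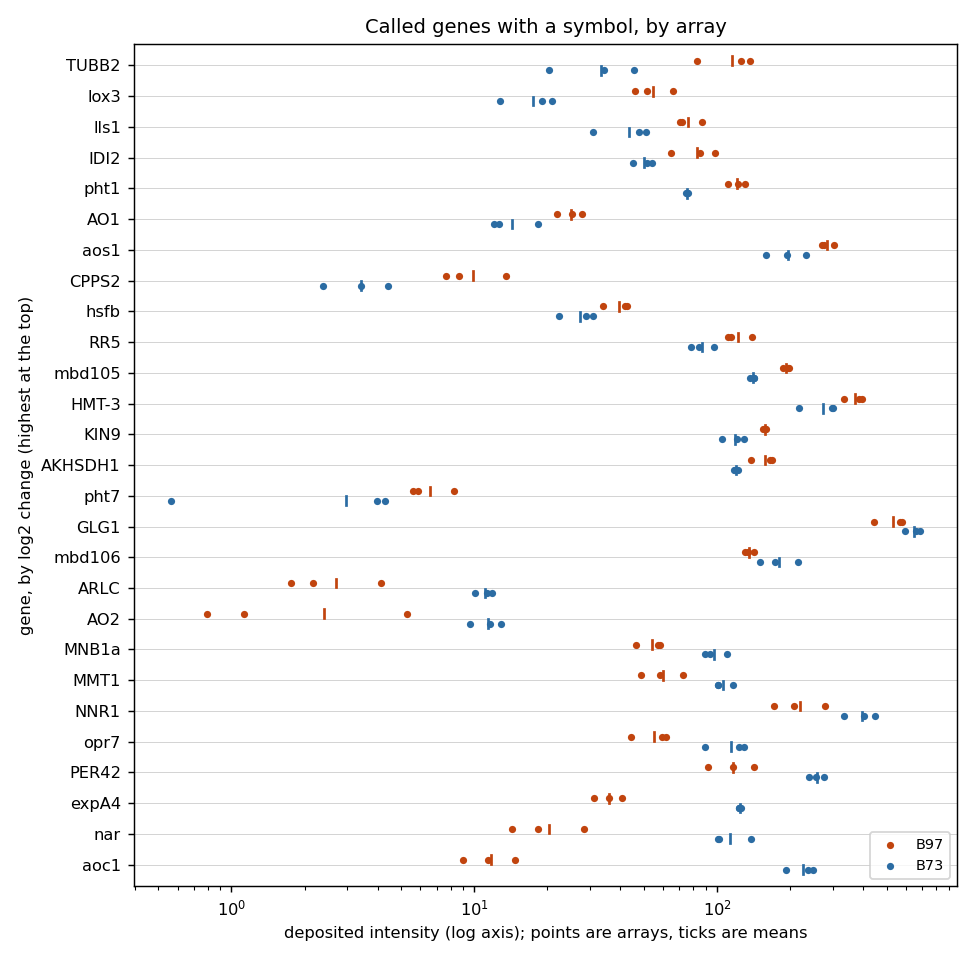
Deposited intensity on a log axis for the 27 called genes with a symbol, each through its probe set of highest mean. Points are arrays and ticks are means, B97 above B73 in each row. For these 27 genes the arrays of the lines do not overlap, from TUBB2 at the top (115 ± 28.6 in B97, 33.3 ± 12.6 in B73) to aoc1 at the bottom (11.7 ± 2.83 in B97, 226 ± 29.4 in B73).

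The other 15 called genes with a symbol lost the call without at least 1 array, and 14 of them without the third array of B97 or of B73. The exception, the aldehyde oxidase gene AO1, missed it only without the first B73 array (adjusted p = 0.051). AO1 read 25.3, 27.9 and 21.9 in B97, against 12.1, 12.7 and 18.3 in B73 (log2 change 0.53 ± 0.10, adjusted p = 0.012). A second aldehyde oxidase gene, AO2, was on the other side, at 5.30, 0.797 and 1.13 in B97 and 11.6, 9.58 and 12.9 in B73 (log2 change -0.52 ± 0.10, adjusted p = 0.012). Aldehyde oxidases convert aldehydes, hormone precursors among them, to acids.

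Enzymes of methionine and the aspartate family were called in both directions. HMT-3, for the homocysteine methyltransferase that makes methionine from S-methylmethionine, rose to 386, 396 and 332 in B97, against 302, 299 and 217 in B73 (log2 change 0.42 ± 0.08, adjusted p = 0.016; 0.063 without the replicate block). MMT1, for the enzyme that makes S-methylmethionine from methionine, fell to 72.3, 58.5 and 48.6 in B97, against 101, 101 and 116 in B73 (log2 change -0.67 ± 0.11, adjusted p = 0.0088). AKHSDH1, for a protein with aspartate kinase and homoserine dehydrogenase activity, rose to 165, 168 and 139 in B97, against 122, 118 and 119 in B73 (log2 change 0.37 ± 0.08, adjusted p = 0.022). The monofunctional aspartate kinase gene AK1 averaged 24.7 ± 0.33 in B97 and 28.2 ± 10.4 in B73, and it did not pass (adjusted p = 0.94). AKHSDH1 missed the threshold without any 1 array (adjusted p from 0.066 to 0.090).

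Among hormone and defence metabolite genes, RR5, a response regulator gene of cytokinin signalling, averaged 122 ± 15.6 in B97 and 86.4 ± 9.58 in B73 (SD, n = 3 each), without overlap (log2 change 0.44 ± 0.07, limma adjusted p = 0.0081). CPPS2, for a copalyl diphosphate synthase of diterpenoid phytoalexins, was weakly read, at 13.5, 8.62 and 7.65 in B97 and 2.39, 4.41 and 3.40 in B73 (log2 change 0.46 ± 0.10, adjusted p = 0.020). The copalyl diphosphate synthase gene of gibberellin synthesis, an1, averaged 19.5 ± 2.78 in B97 and 17.1 ± 2.41 in B73, with overlap (adjusted p = 0.16). The heat shock factor gene hsfb read 41.8, 42.6 and 33.9 in B97, against 30.9, 28.7 and 22.3 in B73 (log2 change 0.44 ± 0.08, adjusted p = 0.012). RR5 and hsfb missed without the third array of either line (adjusted p from 0.051 to 0.082), and CPPS2 without the first or the third array of either line (0.079 to 0.088).

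Of the methyl-CpG-binding domain genes, mbd105 rose (log2 change 0.42, adjusted p = 0.010). In contrast, mbd106 fell (log2 change -0.35, adjusted p = 0.028, or 0.14 without the replicate block). Their relatives mbd101, mbd108, mbd109, mbd111 and mbd115 did not pass (adjusted p from 0.32 to 0.77). The calls of mbd105 and mbd106 were lost at a pseudocount of 1 (0.069 and 0.12). They were also lost without the third array of either line (0.067 to 0.14). The allene oxide synthase gene aos1 rose (log2 change 0.49, adjusted p = 0.021; 0.0502 without the block). A second phosphate transporter gene, pht7, was called higher at 8.29, 5.62 and 5.88 in B97 and 4.00, 0.564 and 4.29 in B73 (adjusted p = 0.043; 0.10 without the block). These pht7 readings are at reporter level, and the call was also lost without any 1 array (adjusted p from 0.085 to 0.17), with the values as deposited (0.087) and at pseudocounts of 1 and 64 (0.083 and 0.11). The remaining calls are given without a role. IDI2 had a log2 change of 0.60 (adjusted p = 0.018), KIN9 one of 0.37 (0.017). ARLC, at reporter level, stood at -0.47 (0.011) and GLG1 at -0.30 (0.040, or 0.19 without the block). KIN9 and GLG1 lie outside the rule for named genes and are given to complete the count.

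Read by function, most lists of genes with a symbol held more members that did not pass than members that did. The 12 lists, written from the symbols of the annotation, held 78 genes, of which 22 were called. Of 11 transcription factor genes, hsfb rose, MNB1a fell and 9 did not pass (median log2 change 0.07), 8 of the 9 at reporter level. The 9 included tb1, the regulator of shoot branching changed in maize domestication, at 2.54, 0.181 and 5.91 in B97 and 1.72, 1.28 and 3.66 in B73. They also included BA1, needed for axillary meristems, which read at most 0.642 in B97 and 0.673 in B73. Of 11 genes of chromatin and DNA methylation, 1 rose, 1 fell and 9 did not pass (median -0.05). The histone deacetylase gene HDA108 was among the 9, at 94.6, 95.7 and 98.2 in B97 and 62.5, 69.8 and 98.5 in B73 (adjusted p = 0.080), and its lines overlapped through the third B73 array.

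Protein synthesis and folding genes had small changes through their probe sets of highest mean. Of 7 genes, limma called 0 (1 had an unadjusted p under 0.05), and the log2 changes ran from -0.23 for the ribosomal protein gene RPL27A to 0.18 for the chaperone gene hsp70-5. Without the replicate block RPL27A also missed (adjusted p = 0.056). Of 4 genes of membrane lipids and the glyoxylate cycle, limma called 0, and 2 had an unadjusted p under 0.05. They were FAD8, PEAMT, PLTP and ICL, and the plastid desaturase gene FAD8 averaged 479 ± 18.9 in B97 and 467 ± 38.9 in B73. Of 3 genes of photosynthesis and chlorophyll, lls1 rose. The chlorophyll a/b-binding protein gene Cab-m7 read 1525, 2089 and 5116 in B97 and 1999, 1968 and 4123 in B73 (adjusted p = 0.88), with the third array highest in both lines.

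In the remaining lists, calls went in both directions more often than in one. The 9 lipoxygenase and jasmonate genes had 2 rises and 2 falls, and the 6 genes of nitrogen, sulfur and aspartate-family amino acids likewise. The 5 redox enzymes had 1 rise and 2 falls, the 4 wall and cytoskeleton genes 1 of each. Rises alone were called among the 5 ion and phosphate transport genes (2, the phosphate transporters, pht7 at reporter level) and the 3 genes of gibberellin, phytoalexins and cytokinin (2). The 3 exchanger genes NHX3, NHX5 and NHX6 were at reporter level, at no more than 2.48 on any array, so their changes are not given. These counts stand beside background shares of 14.8% higher and 14.1% lower among listed genes, and no list was tested as a set.

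The leaf genes Cab-m7 and pgr5, the second for a thylakoid protein of cyclic electron flow, were read on all arrays, and pgr5 by Zm.3459.1.A1_at stood at 489, 343 and 398 in B97 and 404, 613 and 458 in B73. Of 10 genes of the endosperm and the tissue around the embryo, 0 were called by limma and 0 had an unadjusted p under 0.05, 8 of them at reporter level. Their summed signal was 156 to 165 in B97 and 157 to 185 in B73. Most of it came from meg6, at 145, 130 and 118 in B97 and 132, 153 and 119 in B73, while the zein genes, the storage proteins that define the endosperm, each averaged at most 18.5 in either line. Marker genes of root or pollen had no symbol in the annotation used here.

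**Figure D3:**
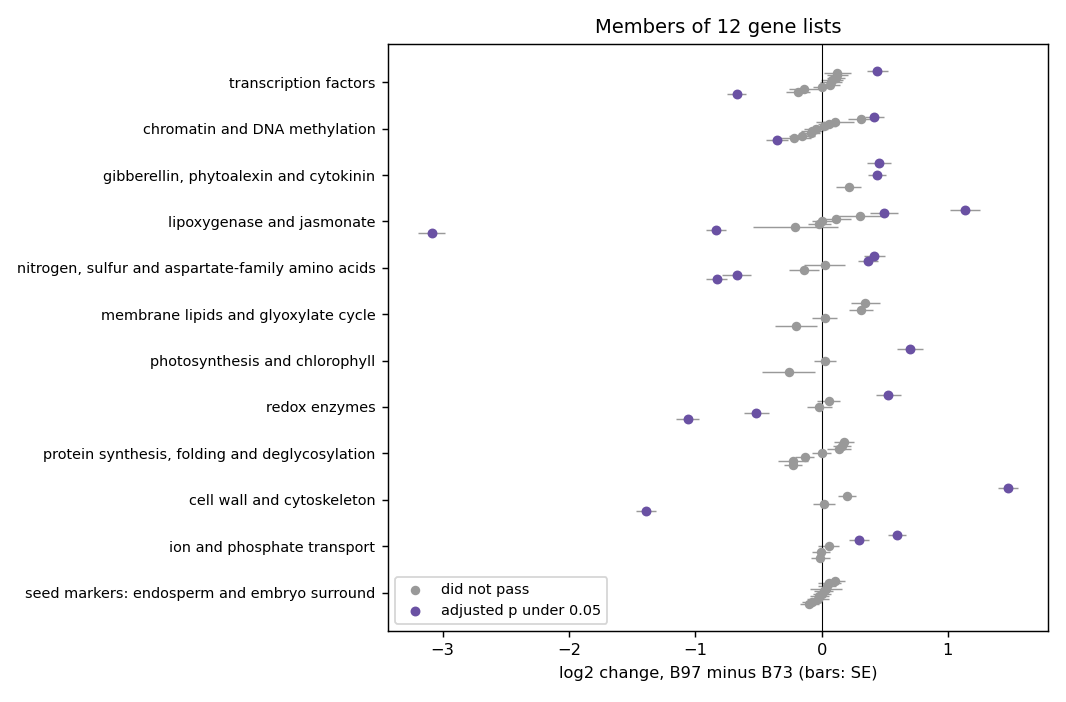
Log2 change, B97 minus B73, of each member of the 12 gene lists, with SE bars. Purple points have an adjusted p under 0.05. Calls lie on both sides of 0 in the lists of transcription factors, chromatin, jasmonate, nitrogen and sulfur, redox enzymes and wall, and the seed markers lie between -0.10 and 0.11.

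Several genes were read by more than 1 probe set, which allows the change of a gene to be measured more than once on the same arrays. Of the 222 such genes, 139 had 0 called probe sets, 15 had all called in 1 direction, 64 had only some called, and 4 had probe sets called in opposite directions. For each of the 536 pairs of probe sets listed for 1 gene, the difference between their changes was tested within arrays by limma. It passed in 22.6% of pairs, 121 in all, from 62 genes. The count was 78 without the replicate block, 31 with a pseudocount of 1, 72 without the third B97 array and 80 without the third B73 array. In 272 pairs at least 1 probe set was at reporter level, and 46 of these differed; of the other 264 pairs, 75 differed, from 46 genes. Among the 163 pairs in which both probe sets averaged over 50, 51 differed (31.3%), and across these pairs the 2 changes correlated at 0.49, as a description, since pairs share genes, arrays and RNA.

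The design behind the probe sets moved with this share. Pairs taken from 1 consensus sequence, by their names, differed in 49 of 253 cases (19.4%), and pairs of 1 transcript cluster with other consensus sequences in 43 of 215 (20.0%). Pairs from separate clusters that the annotation assigns to 1 gene differed in 29 of 68 (42.6%). These pairs came from 185, 69 and 33 genes, in that order. A gene can enter several pairs, so the pairs are not independent. The correlation of changes was 0.59, 0.35 and 0.12 in these 3 classes. Where both probe sets averaged over 50, the shares were 27.6%, 28.6% and 58.8%, of 76, 70 and 17 pairs from 61, 36 and 12 genes. The correlations there were 0.71, 0.46 and 0.30. Whether separate clusters represent 1 gene was not tested.

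**Figure D4:**
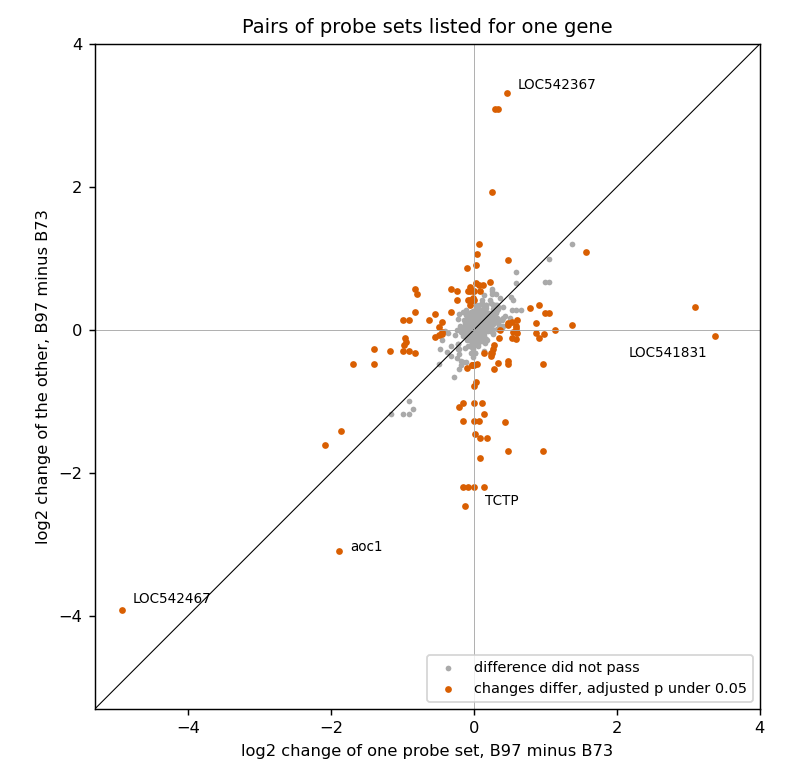
Log2 change, B97 minus B73, of one probe set against the other for the 536 pairs listed for 1 gene; the line marks equal change. The 121 orange pairs differ at an adjusted p under 0.05, and many lie along an axis, as TCTP does, where one probe set changed by -2.19 and 3 partners with signal by -0.15 to 0.14.

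TCTP, for the translationally controlled tumor protein, a conserved growth-associated protein, was the clearest case among genes with a symbol. Its probe set Zm.871.2.A1_a_at read 27.0, 30.1 and 24.9 in B97, against 215, 217 and 141 in B73, a log2 change of -2.19 ± 0.12 (adjusted p = 1.8e-04). Zm.6189.1.A1_a_at, of another cluster, read 1219, 1488 and 2936 in B97 and 1481, 1478 and 2497 in B73, with overlap and an adjusted p of 0.999. Zm.6189.1.A1_x_at and Zm.6189.3.S1_at did not pass either (log2 changes of 0.14 and -0.15). The odd one differed from each of these 3 in the test of the difference (adjusted p from 1.6e-07 to 7.9e-06), and from Zm.6189.3.S1_at with an adjusted p of 0.11 without the replicate block. The fifth probe set, Zm.6189.4.S1_at, was at reporter level and gives no second reading.

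The gene mir3, whose relatives in maize include a cysteine protease of insect resistance, gave 2 answers within 1 consensus sequence. Zm.5987.1.A2_a_at read 393, 362 and 326 in B97, against 809, 693 and 627 in B73 (log2 change -0.98 ± 0.08, adjusted p = 7.0e-04). Zm.5987.1.A2_at read 585, 573 and 698 in B97, against 673, 698 and 720 in B73. These overlapped in the third B97 array, and the probe set did not pass (log2 change -0.22, adjusted p = 0.10). The 2 changes differed by -0.76 ± 0.12 (adjusted p = 5.9e-04).

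The gene nar had 1 probe set with signal. Zm.125.1.S1_at read 28.3, 18.4 and 14.3 in B97, against 102, 138 and 101 in B73 (log2 change -1.79 ± 0.14, adjusted p = 5.4e-04). Zm.125.1.A1_at averaged 3.33 ± 2.62 in B97 and 2.31 ± 0.537 in B73 which is reporter level, so it could not report a fall. IPP had 3 probe sets from 1 consensus. Zm.1738.1.S1_at was called, at 118, 110 and 107 in B97 and 153, 152 and 172 in B73 (log2 change -0.45, adjusted p = 0.0095). That call was lost at a pseudocount of 1 (adjusted p = 0.062) and without the third array of either line (0.063). The _a_at and _x_at probe sets overlapped between the lines (log2 changes of -0.16 and -0.06).

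PLTP, for a lipid transfer protein, had 4 probe sets, of which 1 was called. Zm.19.1.S1_at read 21.4, 20.1 and 15.3 in B97, against 2.84, 5.72 and 1.02 in B73 (log2 change 0.91 ± 0.08, adjusted p = 7.7e-04). Zm.19.1.A1_a_at, of the same consensus, read 12.3, 12.6 and 27.9 in B97 and 8.83, 17.0 and 33.9 in B73. The lines overlapped there, and it did not pass (log2 change 0.03, adjusted p = 0.84). The probe sets Zm.19.2.S1_x_at and Zm.2085.1.S1_s_at, which may bind relatives, had log2 changes of 0.34 and -0.11 and did not pass (adjusted p = 0.076 and 0.30). Zm.19.2.S1_x_at passed when eBayes was fitted with a trend (adjusted p = 0.039) and when only probe sets above the lower quartile of signal were tested (0.0495).

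For aoc1 and expA4 all probe sets were called, in 1 direction. The allene oxide cyclase gene aoc1 of jasmonate synthesis read 11.4, 14.7 and 9.02 in B97, against 192, 248 and 237 in B73, by Zm.6423.2.A1_at (log2 change -3.09 ± 0.11, adjusted p = 5.3e-05). By Zm.6423.1.S1_at it read 17.0, 14.9 and 22.9 in B97, against 111, 144 and 97.6 in B73 (log2 change -1.89 ± 0.15, adjusted p = 6.2e-04). The smaller fall differed from the larger by 1.20 ± 0.18 (adjusted p = 4.0e-04).

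The expansin gene expA4, whose product loosens cell walls, fell to 40.7, 31.0 and 36.0 in B97, against 126, 123 and 123 in B73, by Zm.13728.1.S1_at (log2 change -1.39 ± 0.08, adjusted p = 1.9e-04). Zm.13728.2.S1_a_at and Zm.13728.2.S1_at changed by -0.47 (adjusted p = 0.020) and by -0.27 (0.0499). Both were called with the replicate block and not without it (0.13 and 0.054). The call of Zm.13728.2.S1_a_at was also lost at pseudocounts of 1 and 64 (0.067 and 0.055) and without array 2 or 3 of either line (0.068 to 0.12). That of Zm.13728.2.S1_at was lost without any 1 array (0.12 to 0.19), with median centring (0.068) and at a pseudocount of 64 (0.12). Zm.13728.2.S1_a_at differed from Zm.13728.1.S1_at (adjusted p = 1.3e-04). Zm.13728.2.S1_at, at 4.36, 3.11 and 4.07 in B97 and 8.74, 9.65 and 8.46 in B73, was at reporter level, so the size of its change is not comparable.

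**Figure D5:**
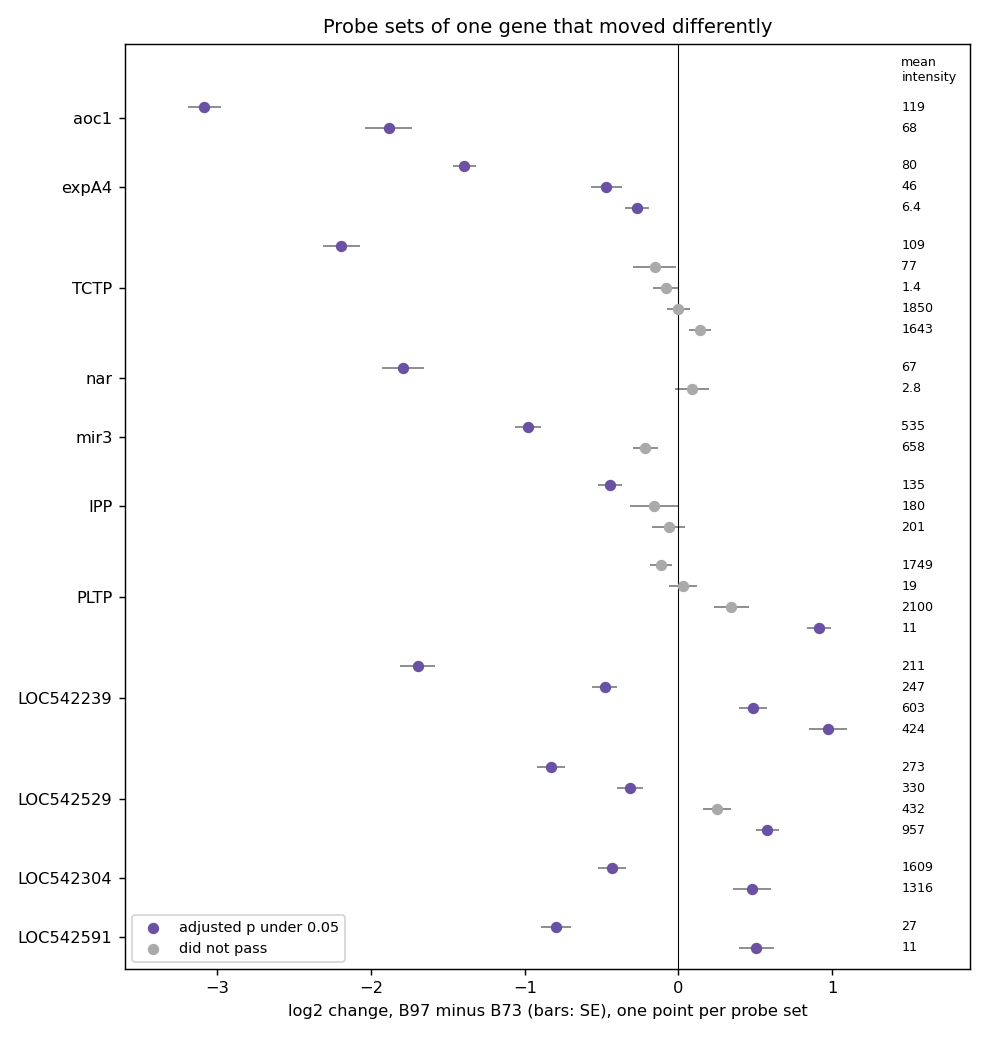
Log2 change, B97 minus B73, with SE bars, for each probe set of 11 genes; the number at the right is the mean intensity over 6 arrays. The 2 probe sets of aoc1 and 3 of expA4 lie on 1 side, TCTP has 1 of 5 below -2, and the 4 LOC genes at the bottom have called probe sets on both sides of 0.

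Probe sets called in opposite directions came from 4 genes without a listed product. LOC542239 had 2 on each side. Zm.7750.2.S1_a_at read 572, 646 and 483 in B97, against 236, 338 and 269 in B73 (log2 change 0.97 ± 0.12, adjusted p = 0.0031). Zm.7750.2.S1_at, from the same consensus, read 108, 93.6 and 73.3 in B97, against 295, 366 and 330 in B73 (log2 change -1.70 ± 0.12, adjusted p = 3.4e-04). All arrays of the lines were separate in both cases, in opposite order. Zm.7750.1.S1_at changed by 0.48 (adjusted p = 0.012; 0.11 without the block), with overlap between the lines, and Zm.7750.2.S1_x_at by -0.48 (0.0081).

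LOC542529 rose by Zm.3699.7.S1_at, at 1020, 1175 and 1257 in B97 and 784, 779 and 728 in B73 (log2 change 0.58 ± 0.07, adjusted p = 0.0032). By Zm.3699.1.S1_at it fell, at 183, 230 and 170 in B97 and 372, 382 and 303 in B73 (log2 change -0.83 ± 0.09, adjusted p = 0.0017). The remaining 2 overlapped between the lines and gave -0.32 (adjusted p = 0.040, or 0.097 without the block) and 0.25, the last without a call. For LOC542304, 1 consensus gave both 0.48 (adjusted p = 0.036, or 0.13 without the block) and -0.43 (0.018). For the rise the lines overlapped, with the first B97 array at 1280 and the first B73 array at 1296. The fall lost its call when array 2 or 3 of either line was left out (adjusted p from 0.053 to 0.11). For LOC542591, separate clusters gave -0.80 (0.0026) and 0.51 (0.022). The rise was weakly read, by Zm.12473.1.S1_at at 12.3, 19.0 and 13.5 in B97 and 5.90, 4.88 and 10.1 in B73. All B73 arrays were thus under 12.8 for that probe set.

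The pairs with the largest differences belonged to 3 LOC genes. LOC541831 read 287, 241 and 142 in B97, against 4.04, 9.38 and 7.69 in B73, by Zm.17475.1.S1_x_at (log2 change 3.37 ± 0.17, adjusted p = 1.3e-04). By Zm.543.1.S1_at it read 122, 122 and 81.1 in B97 and 84.6, 118 and 152 in B73, with overlap (log2 change -0.08, adjusted p = 0.83). The difference was 3.45 ± 0.13 (adjusted p = 4.3e-09) and lay between 3.37 and 3.53 without any 1 array.

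LOC542367 was called higher by both probe sets. By Zm.3765.2.S1_at it read 377, 359 and 235 in B97 and 12.3, 19.7 and 24.3 in B73 (log2 change 3.32 ± 0.19, adjusted p = 2.1e-04). By Zm.3765.1.S1_s_at it read 1322, 1763 and 3113 in B97 and 1250, 1242 and 1827 in B73. The lines overlapped there, and the log2 change was 0.47 (adjusted p = 0.012). The smaller change missed without the third array of either line, with an adjusted p of at most 0.075. In LOC100101525, 1 of 4 probe sets was called, at 849, 605 and 836 in B97 and 70.7, 68.9 and 89.6 in B73 (log2 change 3.09 ± 0.15, adjusted p = 1.2e-04). It exceeded Zm.14272.5.S1_x_at by 2.77 ± 0.13 (adjusted p = 1.6e-08). The 2 partners of the third consensus, minus it, gave -2.75 and -2.79; they read at most 10.7 and 15.7 on any array, the first at reporter level, and both missed with a pseudocount of 1 (adjusted p = 0.10 and 0.051).

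Some large falls were seen by both probe sets of a gene. LOC542467 read 56.4, 43.6 and 36.0 in B97, against 1428, 1823 and 2552 in B73, by Zm.13367.1.S1_at (log2 change -4.92 ± 0.12, adjusted p = 1.7e-05). By Zm.13367.1.S1_x_at it read 84.3, 67.3 and 39.6 in B97, against 1012, 1190 and 1321 in B73 (log2 change -3.92 ± 0.15). LOC542371 fell by 2.08 and 1.60 on the log2 scale, LOC542624 by 1.86 and 1.42, and LOC542695 by 1.17 and 1.16, all with an adjusted p of at most 0.0027. In LOC542695 the probe sets come from separate clusters, and their difference did not pass. In LOC542467, LOC542371 and LOC542624 the probe sets share 1 consensus, and the sizes of their falls differed in the test of the difference. LOC541668, with 1 probe set, read 7.59, 5.30 and 3.85 in B97, against 404, 407 and 283 in B73 (log2 change -4.12 ± 0.09, adjusted p = 1.7e-05).

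Of the 30 genes with a symbol and several probe sets, 23 had 0 called and 7 had a pair that differed, 6 when pairs with a reporter-level probe set are left out. For some the agreement was close. The 3 probe sets of hsp70-5 had log2 changes from 0.12 to 0.18, and 3 of met5, a DNA methyltransferase gene, from -0.11 to 0.02, the other one being at reporter level. The 3 of the bZIP factor gene OBF1 ran from -0.19 to 0.15 without a difference that passed.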

How the data were processed

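Biotin-labelled RNA was hybridised to the Affymetrix Maize Genome Array, per the labels' protocols. The values, intensities per probe set, were deposited by the authors unlogged. The mean on each array without the lowest and highest 2% is 99.9 to 100.0, so the arrays had been scaled before deposit. The software is not given in the sources used here. 0 columns lacked a sample. The 113 AFFX and 66 RPTR control probe sets were dropped. Values were taken as log2(intensity + 16), quantile normalized and fitted by lmFit and eBayes of limma 3.58.1 under R 4.3.3 (two-sided tests, a block for the replicate number, 2 residual degrees of freedom). Same-numbered arrays deviated together from their line means (at 0.35, 0.21 and 0.53, by correlation over probe sets). Arrays 1 and 2 of unlike number also correlated, at 0.13 (B97 array 2, B73 array 1) and 0.10 (B97 array 1, B73 array 2). The third array of either line correlated at -0.39 to -0.23 with arrays 1 and 2 of the other. The values thus set the third arrays apart more than they match arrays 1 and 2 by number. The same-numbered correlations were taken as pairing, which comes from the values and not from the labels. Pairs of probe sets were tested as the difference of their log2 values within arrays. Both fits were first tested on simulated data. For probe sets of above-median signal, 66% of 2-fold and 95% of 4-fold changes were recovered, with 1 false call among 162. For pairs, 100% of both sizes were recovered, with 6 false calls among 66. The 3 arrays of each line limit the precision.

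Genes were named from GEO's platform annotation: it lists 1 gene for 1452 probe sets, several for 1 and none for 16102. It holds symbols without product titles, so lists planned on titles were replaced by 12 lists of symbols, and annotated genes became all listed genes. The members and lists were chosen with earlier results of these data known. Named genes were, among genes with a symbol (a limit added after the annotation had been read), up to 12 called in each direction of largest change without overlap, and the 2 largest of each list and direction. Added were genes with probe sets called in opposite directions, 5 with all called one way, the 5 pairs of largest tested difference, and the 3 of highest mean. Of LOC genes, 2 in each direction were taken after their values were seen, as were the probe sets of TCTP, mir3, IPP and nar.

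Alternatives were other scalings, pseudocounts, filters, weights and thresholds, the fit without the block, and each array left out.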

Additional observations from a re-analysis of the deposited data

Results flagged for a closer look

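Of the 66 reporter control probe sets, which were left out of the comparison, 1 gave a signal far above the others on every array. It read 1124, 1460 and 1695 in B97, a mean of 1426, against 1380, 1921 and 1591 in B73, a mean of 1631, and the lines overlapped. The other 65 had medians of 0.446, 0.564 and 1.11 on the B97 arrays and 0.405, 0.522 and 0.902 on the B73 arrays, and the highest of them read 6.81, 10.7 and 6.08 in B97 and 8.07, 8.47 and 12.8 in B73.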

How the results depend on the processing

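Values are given in the order of called probe sets (4841), called listed genes (320), differing pairs (121) and called genes of the lists (22). A pseudocount of 1 gave 2784, 163, 31 and 13. A threshold of 0.01 gave 2478, 160, 84 and 12. Leaving out 1 array gave 2335 to 3754, 153 to 256, 72 to 109 and 12 to 21, and leaving out the third array of both lines gave 2252, 149, 66 and 12. Without the replicate block 3653 probe sets were called and 78 pairs differed. Among probe sets above the lower quartile 79 pairs differed, and among those averaging over 50 there were 3077 called probe sets and 56 differing pairs. Counting only genes with a symbol gave 27. In all of these the cause was not tested, apart from the smaller number of probe sets or genes tested in the filtered counts. The values as deposited, median centring, a pseudocount of 64, eBayes with a trend and array weights kept all 4 counts within 1.5 times. Of 667 values of the named genes under alternatives, 561 kept their side of the threshold. Of the others, 104 lost the call, 2 gained it and 0 changed direction while called. Of the 37 named probe sets that were called, 19 stayed called under every alternative. With 3 arrays a line and 2 residual degrees of freedom, small changes of weakly read probe sets are least certain.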

Other observations

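The share of probe sets called moved with signal. Of 6041 probe sets averaging under 16, 11.1% were called, against 37.2% of 6409 averaging 16 to 100 and 35.0% of 5105 averaging 100 or more.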
